A study of Mus musculus with 27 samples.

Results

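The accessible EGR2 peaks found only in WT are regions of the mouse genome, all of 1 fixed width, where EGR2 signal was called in tumour macrophages of WT mice, where no EGR2 peak was called in KO mice, and where the chromatin was open. They were chosen by their presence in the deposited peak lists: a peak of the WT EGR2 list was taken if it overlapped no peak of the KO EGR2 list and overlapped at least 1 bp of a region of the merged ATAC list. In all, 1264 of the 5408 peaks of the WT list met this rule. A further 3 peaks that met it lie on chromosome 2 between 98.4 and 98.6 Mb, where a single peak of the WT list has a score of 314541, and were left out.

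The study used MC38 tumours, which grow from a colon adenocarcinoma line of mice. KO mice carried a floxed Ogt gene together with Lyz2-cre, which expresses cre recombinase in myeloid cells from the lysozyme 2 locus, and WT mice carried the floxed Ogt gene alone. Every KO sample therefore carries cre as well as the Ogt deletion, and their effects cannot be told apart. Tumour-associated macrophages (TAMs) of each genotype gave 3 CUT&Tag samples with an EGR2 antibody, 3 ATAC-seq samples and 3 RNA-seq samples, among 27 samples in the series. The labels name neither the age of the mice nor the animals behind each sample. Each genotype has 1 EGR2 peak list, so presence in a list has no replicate, no count of peaks or share of peaks below was tested, and intervals cover counting error alone.

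EGR2 is a zinc-finger transcription factor of the early growth response family. In mouse macrophages it is induced by interleukin 4 and takes part in the alternative activation programme, and it is held back by the corepressors NAB1 and NAB2, which bind EGR proteins directly. OGT, the enzyme encoded by Ogt, attaches the sugar O-GlcNAc to serine and threonine residues of nuclear and cytoplasmic proteins. CUT&Tag marks where an antibody sits on chromatin by cutting the DNA around it with a tethered transposase, and ATAC-seq marks open chromatin by cutting with a free transposase. For the EGR2 samples, labelled as CUT&Tag, the extraction text describes fixed and sonicated nuclei, as used for chromatin immunoprecipitation, and the labels do not say how the methods were joined.

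Open chromatin was found under a larger share of the WT-only EGR2 peaks than of the KO-only ones. Of 4787 peaks found only in WT, 1264 overlapped an ATAC region, or 26.4% (95% Wilson interval 25.2 to 27.7). Of 4380 peaks found only in KO, 399 did, or 9.11% (8.29 to 10.0). Few peaks were common to the lists: 184 accessible peaks of the WT list overlapped a KO peak, and 29.8% of all WT peaks that did so were accessible (26.3 to 33.5). The accessible WT-only peaks thus outnumbered the accessible peaks of both lists and of KO only, while most peaks of either genotype lay outside ATAC regions: 3523 found only in WT and 3981 found only in KO.

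The gap between genotypes was present over ATAC regions named for either genotype. Names in the merged list begin with TAM-WT for 17476 regions and with TAM-KO for 12708. Over TAM-WT regions lay 15.2% of the WT-only peaks (14.2 to 16.2) and 4.38% of the KO-only peaks (3.82 to 5.03). Over TAM-KO regions lay 12.01% of the WT-only peaks (11.1 to 13.0) and 4.93% of the KO-only peaks (4.33 to 5.61). The WT-only share was the higher one in both kinds of region.

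Scores below 200 in each EGR2 list were whole multiples of 3 step sizes, to a relative tolerance of 2e-05. In the WT list the steps were 1.95, 1.898 and 1.81 score units, and in the KO list 2.33, 2.14 and 2.09. Each genotype has 3 EGR2 samples, but the sources do not say what the scales stand for, so they were neither matched to samples nor used as replicates. Of the 1264 peaks, 514 (40.7%) carried the first WT scale, 383 (30.3%) the next and 366 (28.96%) the last, and 1 could not be placed. Over the whole lists, 10 WT peaks and 7 KO peaks could not be placed on a single scale, and at the highest scores the tolerance spans much of a step. The accessible share of WT-only peaks was 27.5% (25.6 to 29.6), 26.1% (23.9 to 28.4) and 25.2% (23.1 to 27.5) on those scales, and that of KO-only peaks was 10.2% (8.80 to 11.8), 8.46% (7.15 to 9.97) and 8.55% (7.15 to 10.2) on the KO scales. All 3 WT values lay above all 3 KO values, and the scales of a list differed little among themselves. The scales are subsets of the peaks of 1 pooled list per genotype, so this is not a comparison of replicates.

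Counted in steps, the accessible WT-only peaks had a median score of 18 (quartiles 15 and 22), against 14 for WT-only peaks outside ATAC regions and 16 for accessible KO-only peaks. For accessible peaks of both lists the median was 24 steps in the WT list and 18 steps in the KO list. The share over open chromatin grew with score. Among WT-only peaks of up to 11 steps it was 9.57% (7.66 to 11.9), at 18 to 21 steps 39.3% (36.1 to 42.6) and at 22 to 29 steps 51.7% (47.3 to 56.1), with no further gain at 30 steps or more (50.5%, 43.5 to 57.5). Among KO-only peaks the same classes gave 5.01% (3.76 to 6.63), 12.1% (9.73 to 14.9), 16.5% (12.5 to 21.4) and 22.4% (15.3 to 31.7). The accessible share was thus higher for WT-only than for KO-only peaks at every score class. The gap in percentage points was smallest among the weakest peaks. The intervals cover counting error over peaks of a pooled list and not the spread between samples. Whether they overlap therefore cannot test a difference between genotypes. A step of the WT list is not known to equal a step of the KO list, so the classes compare numbers of steps and not signal.

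**Figure D1:**
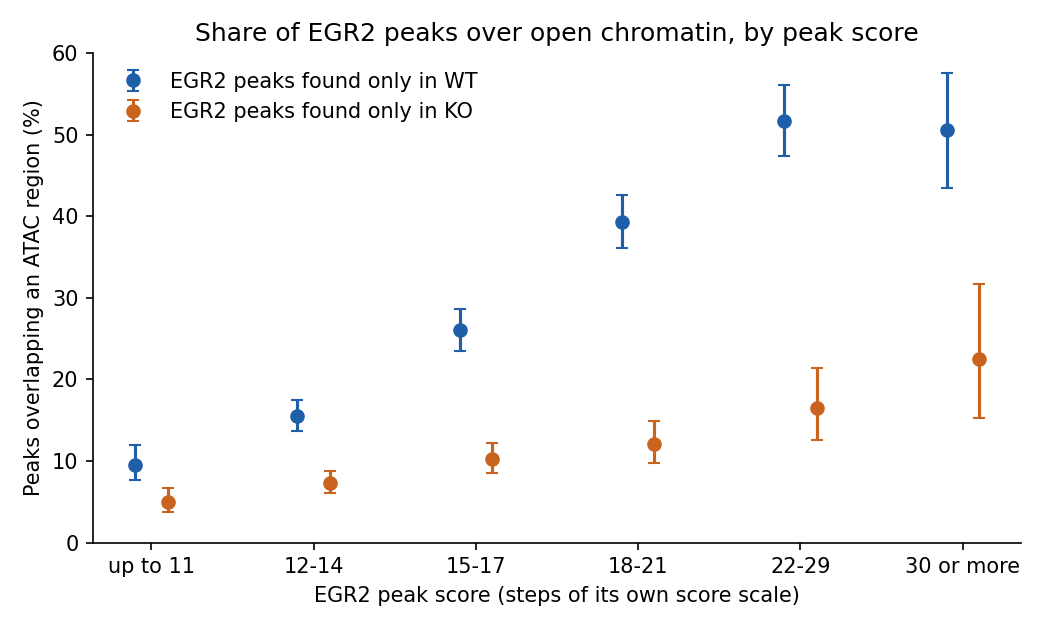
Share of EGR2 peaks that overlap an ATAC region (y axis, %) by peak score in steps of the peak's own scale (x axis), for peaks found only in WT and only in KO; bars are 95% Wilson intervals. The WT-only share reaches 51.7% at 22 to 29 steps, where the KO-only share is 16.5%.

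In score units the 1264 peaks ran between 15.2 and 19883, with a median of 34.2, quartiles of 28.5 and 41.8, and a 90th percentile of 52.7. Most of them therefore sat in a narrow band. The highest, on chromosome 9 at 35216453 to 35216953, alone held 29.02% of the summed score of 68516, which was 48633 without it, and the next highest held 1.498%. Its ATAC region had a score of 16291, against a median of 15.3 over all ATAC regions. The peak was thus extreme in both assays. Whether it reflects EGR2 binding or repeated or poorly mapped sequence was not tested. Next came a peak on chromosome 4 at 118405606 to 118406106, with a score of 1027, and 2 on chromosome 6, at 47734051 to 47734551 (354) and 47645218 to 47645718 (232). Between these in score was a peak on chromosome 17 at 13810294 to 13810794 (317). The ATAC score was 101 under the peak on chromosome 4 and 6.78 under the peak at 47734051, against a median of 34.0 over the set, so that a high EGR2 score did not always come with a high ATAC score.

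Peaks of high score had a KO peak nearby more often than the others. Of the 10 highest, 5 had the edge of a KO peak within 2000 bp, as did 8 of the 20 highest. When the peaks were split into 4 equal groups by score, it was 57 of 316 peaks (18.04%) in the highest group, against 22, 25 and 22 of 316 in the groups below. Over all 1264 peaks a KO peak edge lay within 250 bp of 42 peaks (3.32%), within 1000 bp of 101 (7.99%) and within 50 kb of 566 (44.8%), and the median distance between centres was 65772 bp. For 30 peaks (2.37%) the ATAC region below also overlapped a KO peak, so that the region was bound in both lists although the peaks themselves did not meet. For the other 1234 peaks (97.6%) no KO peak overlapped the ATAC region. The rule already keeps KO peaks off the member itself. Only the rest of the ATAC region could meet one, so this share is high by construction.

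The rule turns on a single base of overlap. The members nearest to a KO peak had its edge 5, 11, 12, 14 and 21 bp away, with scores of 83.3, 30.8, 28.5, 41.0 and 30.8. The accessible WT peaks that just failed overlapped a KO peak by 2, 10, 19, 19 and 19 bp, with scores of 44.9, 28.5, 46.9, 43.0 and 755. In all, 11 accessible WT peaks were left out for an overlap of under 50 bp. On the other side, 83 members (6.57%) overlapped their ATAC region by under 50 bp, and 316 WT-only peaks missed an ATAC region by 250 bp or less.

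The peaks lay over strong ATAC regions more often than over weak ones. The ATAC region nearest each accessible WT-only peak had a median score of 34.0 (quartiles 17.5 and 60.4), against 37.5 for accessible peaks of both lists, 24.6 for accessible KO-only peaks and 15.3 for all ATAC regions. A total of 1348 regions held an accessible WT-only peak, 4.47% of the 30184 regions outside the chromosome 2 interval. They made up 14.6% of the regions in the highest of 10 equal groups (deciles) by ATAC score and 1.69% of those in the lowest. The top decile alone held 440 of them (32.6%). For peaks of both lists the top decile held 38.7% of the regions concerned and for KO-only peaks 26.0%, so that all 3 classes leaned the same way.

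**Figure D2:**
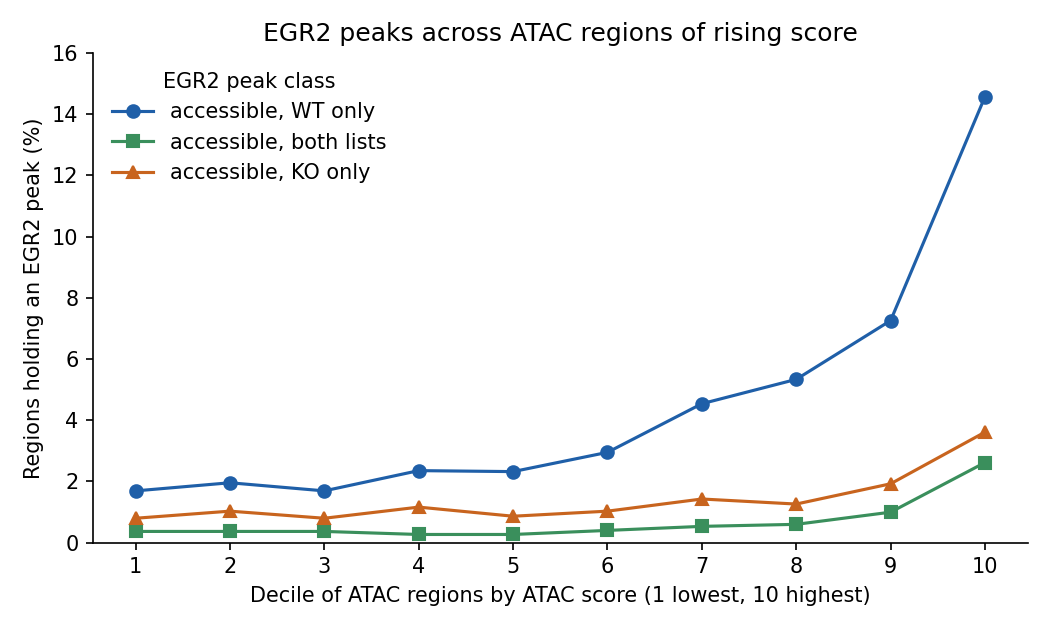
Share of ATAC regions that hold an EGR2 peak (y axis, %) in each decile of regions ordered by ATAC score (x axis), for accessible peaks found only in WT, in both lists and only in KO. The WT-only curve rises to 14.6% in the highest decile, against 1.69% in the lowest.

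Stronger EGR2 peaks lay over stronger ATAC regions, with much scatter. The median ATAC score was 58.4 in the highest of the 4 score groups and 24.4 in the lowest, and 31.7 and 33.1 in the groups between. Across the 1263 peaks with a step number, Spearman's rho between EGR2 steps and ATAC score was 0.32. This is a description across regions, which share the same pooled lists. The 10 highest EGR2 peaks did not follow the trend: their median ATAC score was 23.1, and 3 of them lay over regions below the median of all ATAC regions.

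The merged ATAC list names each region for a genotype. Of the 1264 accessible WT-only peaks, 705 (55.8%) were nearest to a TAM-WT region and 559 to a TAM-KO region, while 57.9% of all ATAC regions carry the TAM-WT name. The share was 31.0% for accessible peaks of both lists and 46.1% for accessible KO-only peaks. Over the 4 groups by EGR2 score, lowest first, it was 57.3%, 55.1%, 54.7% and 56.0%. Among the 20 highest scores 10 peaks were nearest to a TAM-WT region, and among the 10 highest 3 were. The TAM-WT name was thus more frequent under accessible WT-only peaks than under the other accessible classes, and about as frequent as among ATAC regions in general, apart from the few highest scores. The sources do not say how a region received its name in the merged list, so the name is not a measure of which genotype was more open.

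Within the ATAC region the EGR2 peak took no fixed place. The distance between the centres had a median of 217.5 bp, with 369 peaks up to 125 bp, 354 above that and up to 250 bp, 303 up to 375 bp and 238 up to 500 bp. Centres lay within 50 bp of each other for 156 peaks (12.3%), and 725 peaks overlapped their region by at least 250 bp. Accessible peaks of both lists had a median of 214 bp and accessible KO-only peaks 240 bp. The ATAC centre lay at the higher coordinate for 616 peaks (48.7%), so neither side was preferred by much. Of the 1264 peaks, 109 (8.62%) bridged a pair of neighbouring ATAC regions.

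**Figure D3:**
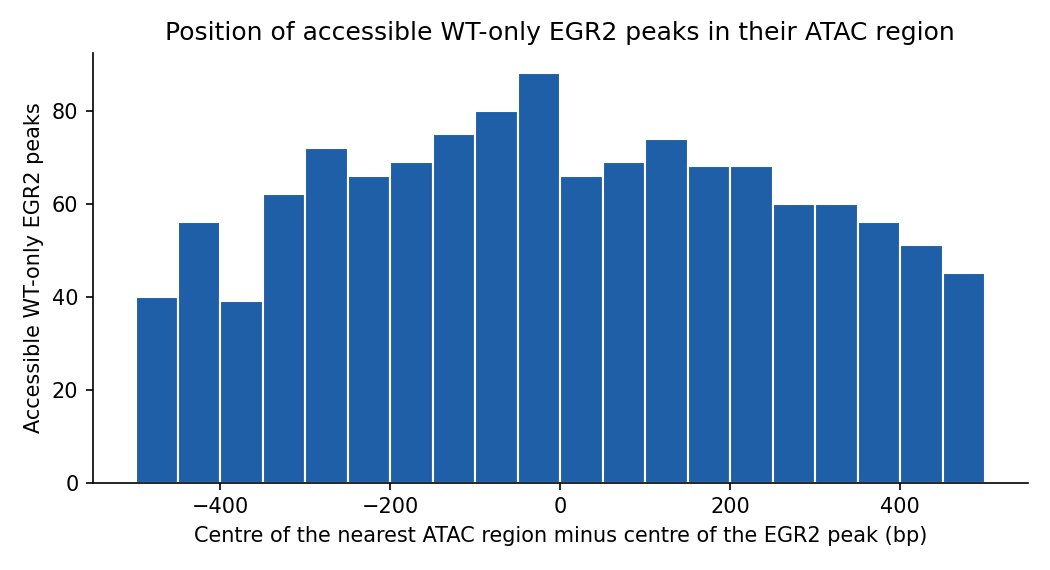
Number of accessible WT-only EGR2 peaks (y axis) by the signed distance of the nearest ATAC region's centre from the peak's centre (x axis, bp, in bins of 50 bp). Counts fall slowly away from 0: 369 peaks lie within 125 bp and 238 lie more than 375 bp away.

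The peaks were spread over every autosome and X. Chromosome 11 held the most, 144 peaks or 11.4% of all, against 8.22% of the ATAC regions, which is 5.80 per 100 ATAC regions where the whole set gave 4.19. Chromosome 14 held 19 peaks (1.82 per 100 regions) and X held 14 (2.998 per 100). The share of WT-only peaks that were accessible was 38.3% on chromosome 19, 36.8% on chromosome 11, 12.3% on chromosome 14 and 7.11% on X. The corresponding shares of KO-only peaks were 13.2%, 16.8%, 6.37% and 0.873%. The WT-only share was higher than the KO-only share on 20 of 20 chromosomes, X and chromosome 14 included. The chromosomes are parts of the same pooled lists, so they are not replicates of this difference.

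**Figure D4:**
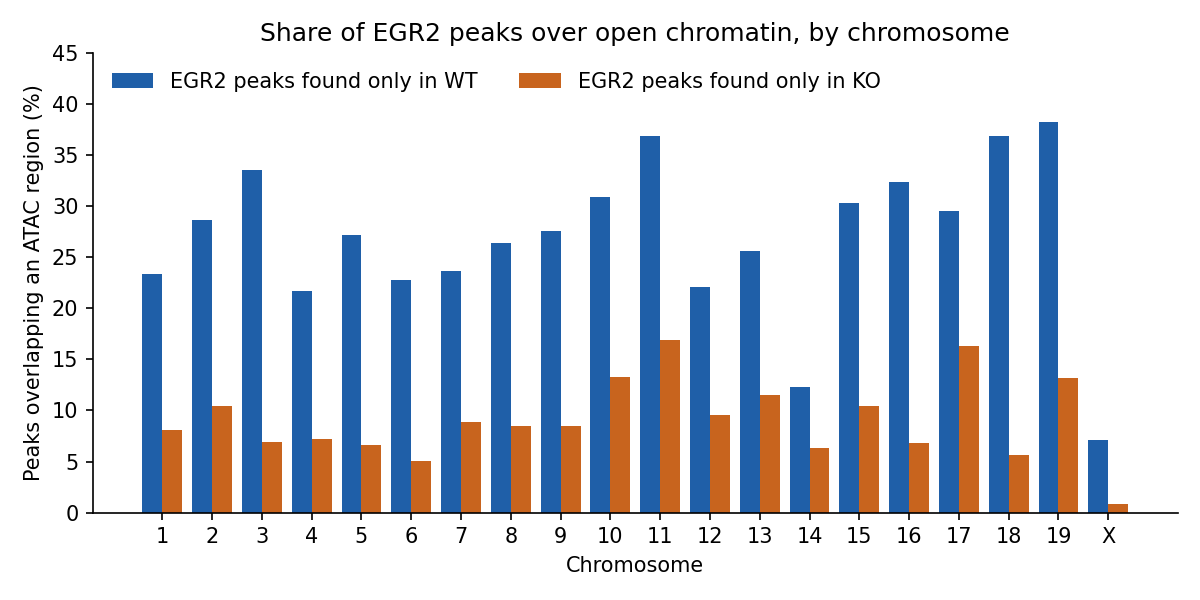
Share of EGR2 peaks over an ATAC region (y axis, %) on each chromosome (x axis), for peaks found only in WT and only in KO. The WT-only bar is the higher one on all 20 chromosomes, with the lowest WT-only shares on X (7.11%) and chromosome 14 (12.3%).

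Most accessible WT-only peaks stood alone. When peaks with centres within 50 kb of the next were joined, 910 peaks (72.0%) had no neighbour, 140 groups held 2 peaks, 17 held 3, 2 held 4 and 3 held 5. The groups of 5 lay on chromosome 11 at 3072663 to 3129954, on chromosome 15 at 78130697 to 78189539 and on chromosome 8 at 127484249 to 127584673. The group on chromosome 11 joined high EGR2 scores, 165 and 127 at the strongest, to weak ATAC regions. Of these regions, 4 had scores between 6.43 and 14.5 and 1 had 23.8. Whether repeated or poorly mapped sequence adds to this group was not tested. The group on chromosome 8 had EGR2 scores of 36.1, 31.3, 38.0, 85.9 and 52.7 over ATAC scores of 25.3, 23.6, 32.9, 66.8 and 27.7. The group on chromosome 15 had EGR2 scores of 43.7, 60.5, 37.1, 32.3 and 26.6 over ATAC scores of 18.4, 86.0, 6.52, 16.5 and 12.8. In both of these groups the strongest EGR2 peak lay over the strongest ATAC region.

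A group of 4 on chromosome 11, at 87333366 to 87362422, lay over uniformly strong ATAC regions, with scores of 138, 141, 150 and 141. Its EGR2 scores were 62.6, 39.1, 41.0 and 50.8, all above the median of the set. The other group of 4, on chromosome 7 at 24141951 to 24161644, had EGR2 scores of 28.5, 21.5, 39.8 and 43.0 over ATAC scores of 21.97, 5.92, 16.5 and 18.7. Its ATAC scores were all below the median of 34.0, and its EGR2 scores lay on both sides of theirs.

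The positions did not match the genome build that the labels name. The submitters' processing notes give mm10, which is GRCm38. On chromosome 11, 4 of the 144 peaks (2.78%) lay within 500 bp of a RefSeq gene start of GRCm38.p6 as deposited, and 50 (34.7%) did once every position was compared at a shift of -109.2 kb. The shift was taken from ATAC regions without an EGR2 peak, of which 54 of 2265 (2.38%) lay near a start as deposited and 589 (26.0%) at the shift. The shift was searched within 1000 kb either way, in bins of 500 bp, for the most hits of those ATAC regions. Their own count at it is therefore high by construction, though not always the highest. The accessible WT-only peaks were not used to find it. The deposited positions of chromosome 11 are therefore offset from GRCm38. GRCm39 could not be tested, as no genome or annotation of it was used here, so no position was converted, no gene was assigned to a peak and no peak sequence is given.

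The same count describes the peaks as a set without naming genes. At the shift found in the same way for each of the 19 chromosomes with gene starts in the table, 244 of 1229 accessible WT-only peaks (19.9%) lay within 500 bp of a gene start, against 32 (2.60%) as deposited. On chromosome 4 the ATAC regions had fewer hits at the shift (134) than as deposited (140). The share was 13.2% for accessible peaks of both lists, 10.9% for accessible KO-only peaks and 14.4% for ATAC regions with no EGR2 peak. Among WT-only peaks outside ATAC regions it was 2.66% at the shift and 1.82% as deposited. A single shift holds for only part of a chromosome, so these values describe the match at that shift and not the share of peaks at promoters. For ATAC regions with no EGR2 peak the match was 7.83% on chromosome 4 and 26.0% on chromosome 11. The classes are spread differently over chromosomes and over ATAC scores. Their shares were not adjusted for either. On chromosome 11, where the shift gave the most hits, the values were 34.7% for accessible WT-only peaks and 15.2% (7 of 46) for accessible KO-only peaks.

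**Figure D5:**
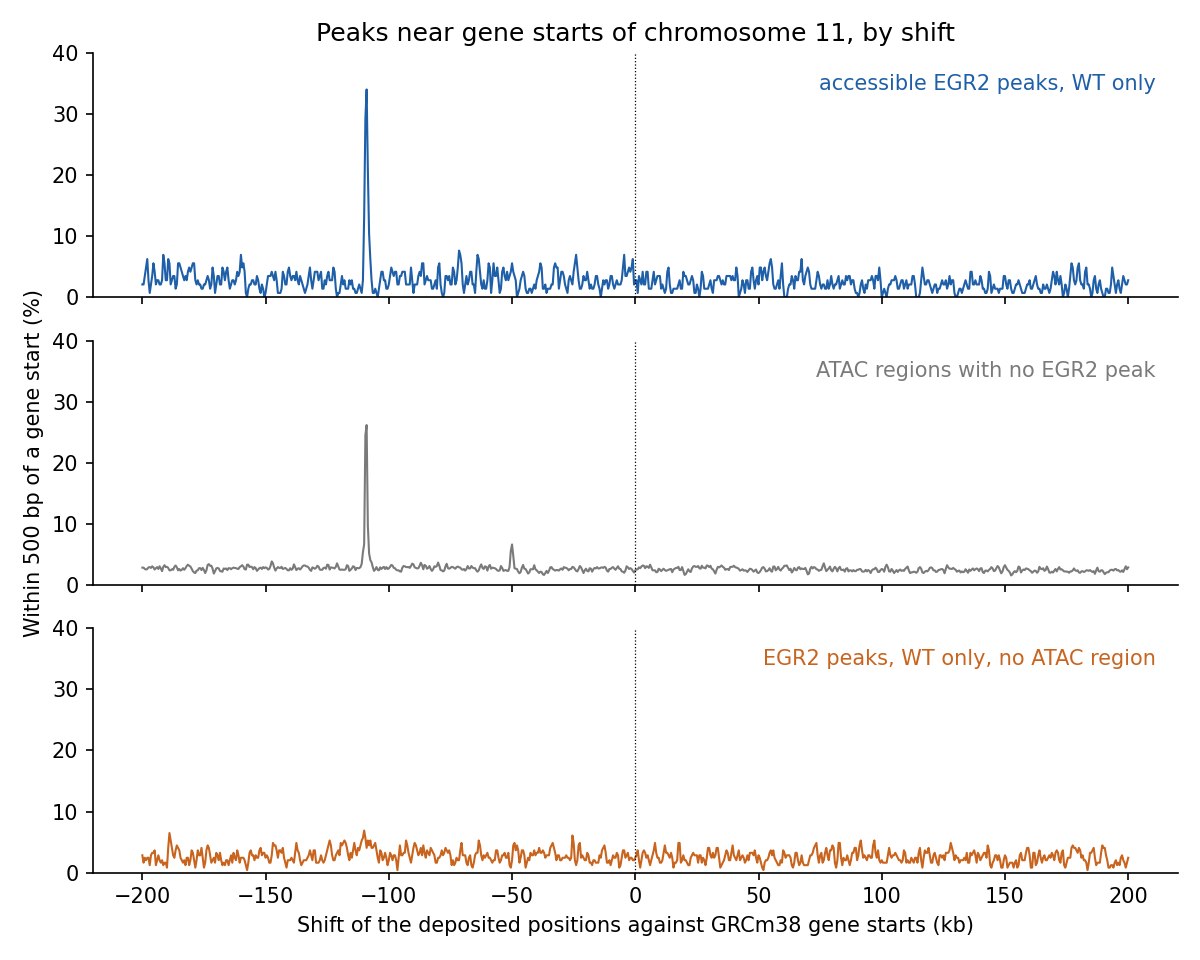
Share of regions within 500 bp of a GRCm38 gene start on chromosome 11 (y axis, %) when positions are compared at each shift (x axis, kb), for accessible WT-only EGR2 peaks, ATAC regions with no EGR2 peak and WT-only EGR2 peaks outside ATAC regions. Accessible WT-only peaks reach 34.7% at -109.2 kb against 2.78% at 0 (dotted line).

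RNA of separate macrophage libraries gave the levels of the targeted gene and of the factor itself, in CPM, which are counts scaled to the library size. Ogt had 32.0, 39.1 and 33.0 CPM in the KO libraries, against 61.0, 58.7 and 49.2 CPM in the WT libraries, and the groups did not overlap. Its log2 fold change, KO over WT, was -0.72 (SE 0.0953, edgeR quasi-likelihood test, Benjamini-Hochberg adjusted p = 2.978e-09, n = 3 per genotype), in a comparison that called 37.7% of 12939 genes, 18.9% lower and 18.8% higher in KO. The count covers the whole gene, so that it can hold reads outside the deleted part. Lyz2, whose locus carries cre, had 84.0 ± 1.52 CPM in KO and 3882 ± 53.8 CPM in WT (SD, n = 3 each).

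Egr2 had 138, 155 and 135 CPM in the KO libraries, against 268, 255 and 273 CPM in the WT libraries. Each KO value was below each WT value, with a log2 fold change of -0.90 (SE 0.0449, edgeR adjusted p = 9.478e-28). In these bulk libraries, fewer cells of a type and less RNA per cell cannot be told apart. Egr1 and Egr3, which encode related zinc-finger factors, were also called lower in KO, with log2 fold changes of -0.42 and -0.76. Among the EGR family and its corepressors 3 of 5 tested genes were therefore lower and 0 higher in KO. Over all tested genes 18.9% were lower and 18.8% higher. The median log2 fold change of the list was -0.42, against -0.001 over all genes. Egr4 did not pass the filter on low counts. The corepressor genes Nab1 (0.08, adjusted p = 0.2727) and Nab2 (0.12, adjusted p = 0.2035) did not pass the edgeR test.

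Macrophage markers were abundant in both genotypes. Without Lyz2, the 9 markers summed to between 8501 and 8570 CPM in KO libraries and between 8162 and 8413 CPM in WT libraries, with 4 genes called higher and 4 lower in KO. Csf1r, the receptor of the macrophage growth factor CSF1, had 1297 ± 11.2 CPM in KO and 961 ± 31.4 CPM in WT, and Itgam, an integrin subunit of myeloid cells, had 91.9 ± 2.15 CPM in KO and 139 ± 7.60 CPM in WT (SD, n = 3 each). Markers of T and NK cells summed to between 557 and 573 CPM in KO and between 336 and 350 CPM in WT, with 14 of 17 tested genes higher and 0 lower in KO. Markers of B cells summed to between 107 and 113 CPM in KO and between 53.4 and 56.1 CPM in WT. Most of that sum was Ighm, with a mean of 98.4 CPM in KO and 44.1 CPM in WT. In this list 2 of 5 tested genes were higher and 1, Cd79b, was lower in KO. Markers of dendritic cells summed to between 288 and 301 CPM in KO and between 442 and 462 CPM in WT, with 2 of 7 tested genes higher and 3 lower. The summed ranges of neutrophil markers overlapped (101 to 111 CPM in KO and 95.0 to 105 CPM in WT). Most of that sum was Csf3r, with 98.4 ± 4.12 CPM in KO and 83.0 ± 1.34 CPM in WT. Of 6 tested neutrophil markers, 3 were lower and 1, Csf3r, was higher in KO, with a median log2 fold change of -1.02. The ranges of tumour, stromal and endothelial markers did not overlap (107 to 120 CPM in KO and 91.3 to 105 CPM in WT). Of 10 tested genes of that list, 4 were higher and 2 lower in KO. To set beside these counts, edgeR placed 18.8% of all 12939 tested genes above WT in KO and 18.9% below. Most lists are short, and whether any of them departs from those shares was not tested. No gene of these lists was at 0 in all libraries. The part of such cells in the RNA differences and in the EGR2 and ATAC lists was not tested.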

How the data were processed

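EGR2 CUT&Tag and ATAC-seq peaks and RNA-seq counts were used. The deposited EGR2 lists give a score per peak, 1 list per genotype, and the deposited ATAC list a score per region, pooled over all ATAC samples; the peak caller is not given in the sources used here. Scores sum to 992722 in the WT list and 991547 in the KO list, with the chromosome 2 interval included. In that interval 1 WT peak alone has a score of 314541. These sums do not show how scores were scaled, so scores compare peaks within a list. Raw counts per gene were made by the authors with featureCounts 2.0.6 on GENCODE M10, per the file headers. Libraries held 32406170, 11468556 and 12156594 counts in KO and 12439582, 7953817 and 7032540 in WT.

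Overlaps, score steps and shifts were computed with numpy 2.4.6, pandas 2.3.3 and scipy 1.17.1 in Python 3.11.15; figures were drawn with matplotlib 3.10.9. Step sizes, score classes and the 50 kb joining distance were chosen on these data. The best shift per chromosome was searched up to 1000 kb either way in 500 bp bins. Counts were tested with edgeR 4.0.16 (filterByExpr, TMM, quasi-likelihood F-test, 2-sided) and DESeq2 1.42.0 as an alternative in R 4.3.3, with calls at adjusted p below 0.05; of 48440 gene identifiers, 48058 had a symbol. Scripts were tested on simulated data. Same-numbered KO and WT libraries did not deviate together. The labels do not say that libraries came from separate animals, so p-values measure only the spread between them.

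The members and lists were chosen with earlier results of these data known. The rule for named genes gave Ogt, Egr2 and Lyz2, its other parts needing genes near peaks. The EGR family and markers come from the lists. Markers named singly, Csf1r and Itgam among them, were chosen after their values were seen. So were the named peaks (the highest scores, those at the rule's edge and the groups of 4 or 5). Shares near promoters, EGR motifs, peak sequences and RNA of neighbouring genes were planned but not run, because the build of the lists is not that of the annotation at hand. ChIP-seq, histone mark and single cell data were not analysed here.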

Additional observations from a re-analysis of the deposited data

How the results depend on the processing

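The accessible WT-only peaks numbered 1264. They numbered 1194 when WT peaks within 500 bp of a KO peak counted as shared, 908 with scores at or above the list's median and 1267 with chromosome 2 kept, all within 1.5 times. They numbered 725 when the ATAC overlap had to be at least 250 bp. Among alternatives added after seeing the data, they numbered 727 over TAM-WT regions, 575 over TAM-KO regions, 688 at 18 steps or more, and 750 without the first score scale (881 and 898 without each of the others). The accessible share was 15.1% of WT-only and 4.82% of KO-only peaks with the 250 bp overlap, 39.4% of WT-only and 12.2% of KO-only peaks with high scores, and 26.2% of WT-only and 7.92% of KO-only peaks with near peaks counted as shared. It was 15.2% of WT-only and 4.38% of KO-only peaks over TAM-WT regions, 12.01% and 4.93% of the same over TAM-KO regions, and 44.7% of WT-only and 14.3% of KO-only peaks at 18 steps or more. The WT-only share was the higher one under each of these alternatives. The share of members near a gene start at the shift was 12.6% within 250 bp and 25.7% within 1000 bp.

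For RNA, 4874 genes were called, 2442 lower and 2432 higher in KO. Requiring 1.5-fold left 1713, of which 810 were lower and 903 higher. Leaving out 1 library gave 3991 to 4587 calls, 2010 to 2297 of them lower and 1981 to 2302 higher. Replicate numbers did not pair the samples (correlations of -0.007, 0.015 and 0.021 over 6451 genes), and with the replicate number as a block 2353 were lower and 2338 higher. Other normalization, no filter, counts divided by 2 and DESeq2 stayed within 1.5 times. For Ogt, Egr2, Lyz2, Egr1, Egr3, Nab1 and Nab2, 77 of 77 values under alternatives kept their direction and side of the threshold. Alternatives for gene starts, motifs and neighbouring genes were not run.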
